A study of Mus musculus with 8 samples.

Results

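The Pax genes encode transcription factors with a paired-box DNA-binding domain, and 8 of them were examined here: Pax1, Pax2, Pax3, Pax5, Pax6, Pax7, Pax8 and Pax9. Their DNA methylation was read in nephron progenitors by reduced representation bisulfite sequencing (RRBS), which samples CpG-rich parts of the genome and reports, for each CpG, the share of reads that kept the cytosine and so were methylated. Members were taken by position: each gene body with 5 kb on each side in mm10, and in it every CpG with at least 10 reads in all 8 libraries, after the reads of both strands had been added. This gave 750 of the 441994 CpGs shared by the libraries, and 71 of the 36513 tiles of 1 kb that held at least 3 such CpGs. Pax2 and Pax8 had 228 of these CpGs and 18 of the tiles, and the other 6 members had 522 CpGs and 53 tiles.

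The study asked how less food for the mother affects the DNA methylome of nephron progenitors, the cells from which nephrons form. The libraries came from embryos at E17.5 of CD1 mice, an outbred stock, with 4 libraries from dams on a calorie-restricted diet (70% of the mean daily intake, given once a day) and 4 from dams with unrestricted food. All embryos of both groups were heterozygous for the transgene Tg(Six2-EGFP/cre), in which the Six2 promoter drives EGFP and Cre, and the progenitors were sorted by their GFP signal. Kidneys of all embryos were taken, without regard to sex. No label tells if a library is 1 litter or a pool of litters, so the tests below weigh the diets against the spread among 8 libraries, which may be partly technical. Restricted libraries 1 and 2 stood apart in 1 respect: their level over all reads of the genome was 2.24 and 3.28 percentage points below their mean over CpGs, while this gap ran from -0.575 to 0.817 points in the other 6.

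Pax2 and Pax8 are both needed to form the kidney, and with Pax5, which is known for its role in B cells, they make up 1 subgroup of the family. Pax1 and Pax9 act in the axial skeleton, thymus and teeth, Pax3 and Pax7 in neural crest and skeletal muscle, and Pax6 in eye, brain and pancreas, and none of these has a known role in nephron progenitors; they are called silent here. Developmental regulators of this kind often lie in long stretches of CpG-rich DNA that stay unmethylated whether or not the gene is transcribed. RNA was not measured here, so "expressed" and "silent" are background.

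In GRCm38.p6, the coordinates of mm10, Pax2 spans chr19:44746601-44838269 on the plus strand and Pax8 chr2:24420551-24475599 on the minus strand. Of the silent members, Pax1 (chr2:147361930-147375049), Pax6 (chr2:105668896-105698410) and Pax9 (chr12:56691693-56712824) lie on the plus strand, and Pax5 (chr4:44524748-44710694) and Pax7 (chr4:139737059-139833530) on the minus strand. Pax3 spans chr1:78101267-78197136. Pax2 had the most measured CpGs (216), ahead of Pax7 (138), Pax5 (124), Pax6 (94), Pax1 (74), Pax3 (60), Pax9 (32) and Pax8 (12).

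The DNA behind the comparison is shown for 5 promoters of 300 bases, each reaching 250 bases before and 50 bases after a transcription start, taken from RefSeq (GRCm38.p6) and printed 5′ to 3′ on the gene's own strand. The table held 10 promoters for 7 of the 8 members, and Pax3 had no entry. Capitals mark each CpG that had at least 10 reads in all 8 libraries, and every CpG left in lower case did not. The set was chosen to set the kidney genes (Pax2 at chr19:44755502-44755801, Pax2 at chr19:44756656-44756955, and Pax8 at chr2:24475550-24475849, minus strand) beside members silent in kidney (Pax1 at chr2:147364744-147365043 and Pax6 at chr2:105682213-105682512).
Pax2, start near 9 kb: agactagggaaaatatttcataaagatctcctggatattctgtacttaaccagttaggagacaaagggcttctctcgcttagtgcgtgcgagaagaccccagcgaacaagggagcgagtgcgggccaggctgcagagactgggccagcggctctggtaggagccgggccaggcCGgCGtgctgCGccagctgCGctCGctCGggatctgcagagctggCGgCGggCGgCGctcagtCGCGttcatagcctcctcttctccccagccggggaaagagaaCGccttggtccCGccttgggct
Pax2, start near 10 kb: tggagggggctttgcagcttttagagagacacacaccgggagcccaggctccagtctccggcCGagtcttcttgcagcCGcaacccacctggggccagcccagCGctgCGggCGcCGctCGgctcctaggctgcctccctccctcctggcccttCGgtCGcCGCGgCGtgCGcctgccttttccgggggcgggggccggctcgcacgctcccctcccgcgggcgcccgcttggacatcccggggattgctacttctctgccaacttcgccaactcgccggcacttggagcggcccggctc
Pax8: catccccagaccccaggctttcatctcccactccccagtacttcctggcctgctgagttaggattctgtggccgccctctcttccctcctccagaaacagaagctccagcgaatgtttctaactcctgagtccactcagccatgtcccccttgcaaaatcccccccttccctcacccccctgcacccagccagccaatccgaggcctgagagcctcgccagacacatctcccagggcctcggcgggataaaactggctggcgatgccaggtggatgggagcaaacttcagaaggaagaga
Pax1: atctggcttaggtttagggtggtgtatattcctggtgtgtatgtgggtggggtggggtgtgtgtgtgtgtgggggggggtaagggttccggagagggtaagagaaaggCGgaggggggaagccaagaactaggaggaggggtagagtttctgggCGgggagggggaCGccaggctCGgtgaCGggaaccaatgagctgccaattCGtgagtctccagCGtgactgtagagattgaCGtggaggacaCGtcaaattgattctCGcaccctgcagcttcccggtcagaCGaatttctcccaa
Pax6, internal start: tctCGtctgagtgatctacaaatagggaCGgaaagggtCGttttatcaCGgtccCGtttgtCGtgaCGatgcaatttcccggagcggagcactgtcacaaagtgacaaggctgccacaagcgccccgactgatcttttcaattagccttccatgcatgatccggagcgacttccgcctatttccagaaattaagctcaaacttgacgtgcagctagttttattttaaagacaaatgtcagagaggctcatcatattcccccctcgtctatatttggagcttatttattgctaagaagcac

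Read counts of promoters, windows, tiles and regions are sums over CpGs here, so a read covering several CpGs counts at each. The Pax2 promoter nearest 9 kb inside the gene boundary held 23 CpGs, 14 of them measured, and 4 of 3021 reads there were methylated over the 8 libraries. The next Pax2 promoter held 30 CpGs, 13 of them measured, with 2 of 4076 reads methylated. In the silent genes, 6 of 2818 reads were methylated at 11 CpGs of the Pax1 promoter, and 3 of 1161 reads at 7 CpGs of the internal Pax6 promoter. Each of these 4 promoters held the letters CCGG (the same on both strands), where the enzyme commonly used for RRBS cuts, at 3, 7, 2 and 2 places in the order Pax2, Pax2, Pax1 and Pax6. CCGG occurred in 52.8% of all 32851 promoters in the table, and the median promoter held 7 CpGs. The Pax8 promoter held 7 CpGs and no CCGG, and no CpG in it was measured. Promoters with CCGG could lack measured CpGs too: that of Pax6 at its gene start (4 places), Pax7 (2 places) and Pax5 (1 place) had none. Levels over the measured CpGs stayed at or under 0.794% in each library at the 4 promoters that had them, and the diet groups overlapped at each.

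Pax8 was seen only beside its promoter. It had 12 measured CpGs in its whole region, 11 of them in the first 5 kb of the gene. Read counts summed over the 12 CpGs were 199 to 487 per library. CpGs of the same fragment share reads, so fewer molecules were seen than these counts. Its tile of 3 CpGs had 48 to 129 counts per library, and its tile of 6 CpGs had 96 to 258. The 9 CpGs within 1 kb of the Pax8 promoter averaged 0.796 ± 0.944% in restricted libraries and 0.452 ± 0.904% in unrestricted libraries (SD, n = 4 each), and no library passed 1.85%. Counts and means over the joint CpGs or tiles of Pax2 and Pax8 rest mainly on Pax2, which had 216 CpGs. Of these, 114 had no methylated read in any library. Where a level of the pair is a mean of gene means, Pax8 weighs as much as Pax2.

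Gene starts were nearly free of methylation in the members with data. A window of 1.5 kb (1000 bp outside and 500 bp inside the gene's 5′ end) held at least 3 measured CpGs in 5 members, and none in Pax5, Pax6 or Pax8. For Pax3, whose strand was not given, the gene end with more CpGs was used. The transcription starts listed for Pax1, Pax7 and Pax9 lay 3064, 562 and 3778 bp inside the gene's 5′ end, and so outside these windows. The Pax2 window (18 CpGs) read 0.142%, 0.37%, 0% and 0% in restricted libraries and 0.185%, 0%, 0% and 0% in unrestricted libraries. It was at 0 in 5 libraries. At the depth of the shallowest library, 406 reads summed over the 18 CpGs, a count of 0 would allow up to 0.739%. This limit takes each read at each CpG as a separate molecule. Neighbouring CpGs share fragments and reads, so it is too low. That library was restricted library 2, which was not at 0. For the 5 libraries at 0 the limit reckoned in the same way is no higher. The Pax1 window (6 CpGs) averaged 0.0801 ± 0.16% in restricted and 0.0706 ± 0.141% in unrestricted libraries, and the Pax3 window (11 CpGs) 0.155 ± 0.196% and 0.477 ± 0.44% in the same order. In the Pax7 window (7 CpGs) the means were 0.418 ± 0.15% with restriction and 0.482 ± 0.437% without, and in the Pax9 window (9 CpGs) they were 0.269 ± 0.538% and 0.629 ± 0.586%. The highest value in any library was 1.40%, in Pax9. Such starts were common, since 92.1% of all 11860 gene-start windows lay under 5% and 85.8% under 1%. Pax2 lay below the mean of the 4 silent members in this window (0.0873% against 0.323% over the 8 libraries), and in 7 of 8 libraries, with ranges of 0 to 0.37% and 0.0916 to 0.649% over libraries.

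**Figure D1:**
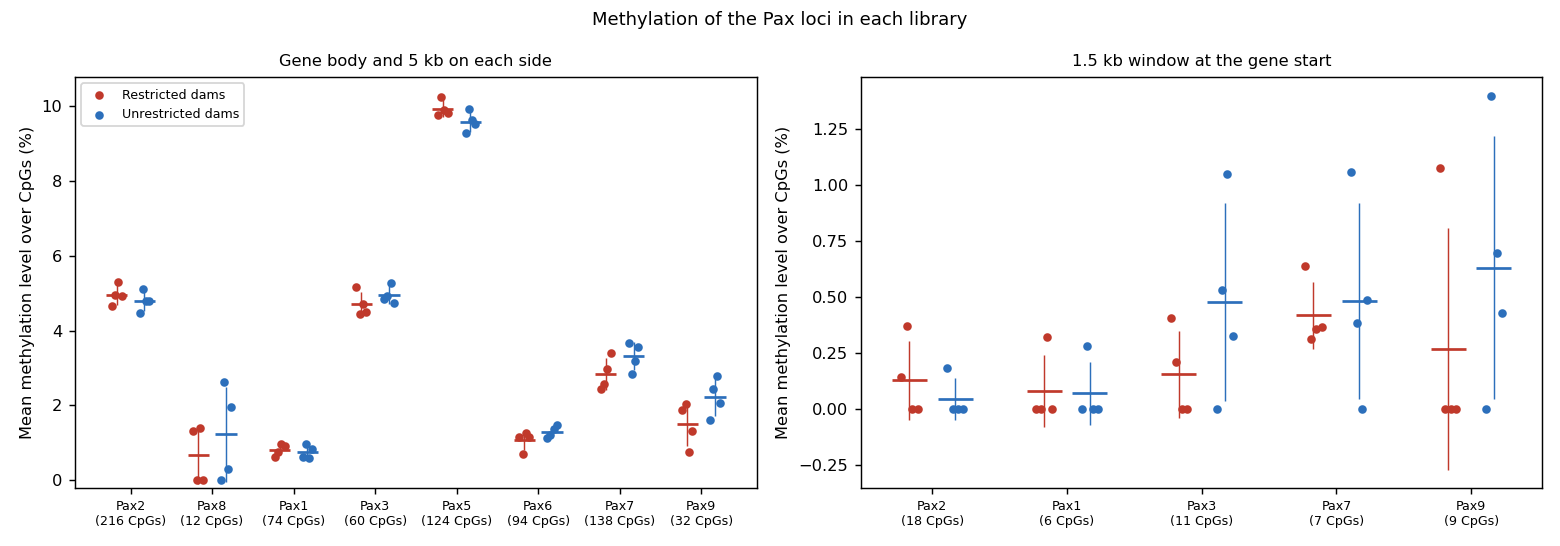
Mean methylation level over CpGs (%, y axis) in each library, for the whole region of each member (left) and for the 1.5 kb window at the gene start where at least 3 CpGs were measured (right); points are libraries, horizontal lines means and vertical lines SDs of 4 libraries. Pax5 stands highest on the left, near 10%, and Pax1, Pax6 and Pax8 lie near 1%, while every start window on the right is at or below 1.40%.

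Over whole regions the members differed by more than the libraries did. Pax5 had the highest level, with 9.76%, 10.3%, 9.89% and 9.83% in restricted and 9.27%, 9.93%, 9.62% and 9.53% in unrestricted libraries. Pax2 followed with 4.66%, 4.95%, 5.31% and 4.93% in restricted and 4.47%, 5.12%, 4.79% and 4.78% in unrestricted libraries. Pax3 had nearly the same level (4.70 ± 0.329% with restriction, 4.95 ± 0.231% without), and its library range overlapped that of Pax2. Pax7 averaged 2.84 ± 0.437% in restricted and 3.32 ± 0.374% in unrestricted libraries, below Pax2 and Pax3 in every library. Pax9 averaged 1.49 ± 0.583% and 2.22 ± 0.504% in the same order, below Pax7 in 8 of 8 libraries although the ranges over libraries overlapped. Pax6 (1.07 ± 0.249% with restriction, 1.29 ± 0.155% without), Pax8 (0.674 ± 0.779% and 1.23 ± 1.28%) and Pax1 (0.817 ± 0.149% and 0.763 ± 0.184%) had the lowest levels. Their ranges overlapped, and Pax8 lay below Pax6 in 4 of 8 libraries and above Pax1 in 4 of 8. This order held for a minimum of 10 reads only. At 5 reads Pax5 (17.6%) and Pax2 (8.87%) stood first as well, but Pax8 was at 5.74%, above Pax9, Pax6 and Pax1. At 20 reads Pax2 was highest (4.73%), Pax5 had 0.556%, and Pax8 had no CpG left.

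These levels lay in the middle range of genes. Of 14936 gene regions with at least 10 measured CpGs the median level was 3.08%, and the members lay at percentiles from 38.5 (Pax1) to 68.6 (Pax5), with Pax2 at 56.2 and Pax8 at 39.7. The mean of Pax2 and Pax8 was 2.82 ± 0.429% in restricted and 3.01 ± 0.753% in unrestricted libraries, and that of the other 6 members was 3.48 ± 0.0416% and 3.69 ± 0.117% in the same order. The pair ranged from 2.24 to 3.88% over the libraries and the others from 3.42 to 3.80%, and the pair was the lower one in 7 of 8 libraries. In this mean each gene counted once, so Pax8 with its 12 CpGs weighed as much as Pax2. Pax2 alone (4.47 to 5.31%) lay above the mean of the other 6 in every library, and Pax8 alone (0 to 2.64%) below it. For the other 6, each restricted library (3.42 to 3.51%) lay below each unrestricted library (3.52 to 3.80%), which is a mean over chosen genes and has no test. Pax2 and Pax8 against the others has no test either, since genes are not replicates, and its direction turned with the coverage minimum: the pair lay 0.668 percentage points below the others at 10 reads, 1.10 points above them at 5 reads and 3.05 points above at 20 reads, where Pax8 had no CpG left.

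The order hid a common layout along the genes. Most CpGs in the first 20 kb of the members had almost no methylation, and high levels appeared far inside the long genes. The boundaries of 5 and 20 kb were chosen after the levels had been seen. From 5 to 20 kb inside the gene, 103 of 108 CpGs of Pax2 and Pax8 and 216 of 221 CpGs of the other members lay under 5%, which is 95.4% and 97.7%. In all other protein-coding genes of known strand the share at that distance was 60.1% of 28270 CpGs. The mean level there was 0.917% in Pax2 and Pax8, 0.687% in the other members and 27.2% in the rest of the genes. Promoters inside genes were not left out of any of these sets. Of the promoters shown above, 2 of Pax2 and the internal one of Pax6 lie at this distance. The 2 tiles that hold those of Pax2 had 25 and 35 of its 107 CpGs there. In the first 5 kb the shares were close, at 92.9% in Pax2 and Pax8 (56 CpGs), 95.5% in the other members (156 CpGs) and 95.2% in all other genes (190001 CpGs). Neighbouring CpGs in a gene share their fragment and reads, so these counts describe the loci and were not tested. Among the exceptions within 20 kb were 6 CpGs of Pax9, which averaged 2.10% in its first 5 kb and 3.23% beyond, a tile of 3 CpGs about 4 kb inside Pax5 at 13.95% (chr4:44706001-44707000), and the Pax2 tile described below.

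**Figure D2:**
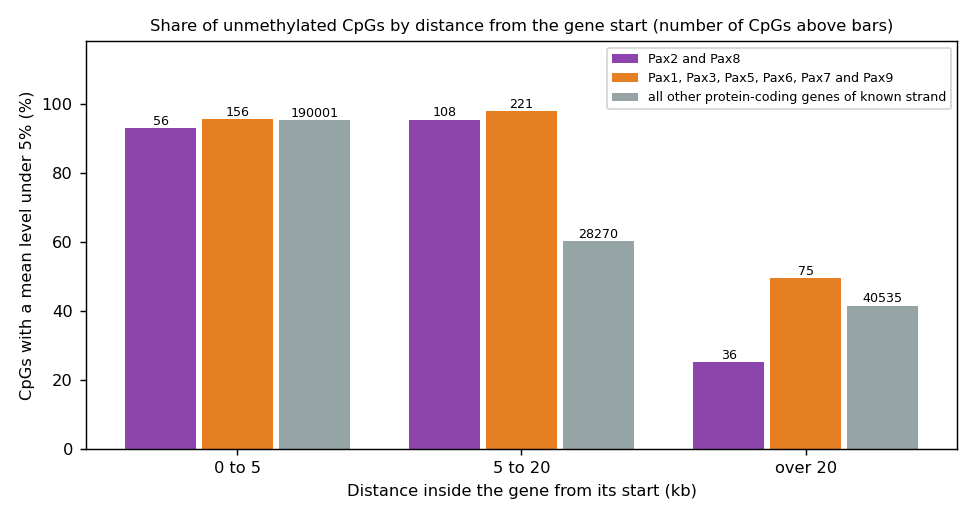
Share of CpGs with a mean level under 5% (%, y axis) by distance inside the gene from its start (kb, x axis), for Pax2 and Pax8, for the other 6 members and for all other protein-coding genes of known strand; the number over each bar is the count of CpGs. Between 5 and 20 kb both Pax sets stay above 95%, against 60.1% in other genes, and beyond 20 kb they stand at 25% (Pax2) and 49.3%, against 41.5%.

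Beyond 20 kb the members with data were more methylated. Pax2 averaged 22.4% over 36 CpGs there, with 20.7 to 23.4% over the libraries, and 9 of the 36 CpGs lay under 5%. Pax5, its silent subgroup partner, had almost the same mean of 22.3% over 51 CpGs, but 32 of the 51 lay under 5%. Pax7 averaged 20.2% over 18 CpGs, 3 CpGs of Pax3 averaged 89.4% and 3 of Pax6 averaged 10.9%. Pax1 and Pax9 had no CpG measured there. The 75 CpGs of these 4 silent members, 51 of them from Pax5, averaged 24.0% (22.7 to 25.1% over the libraries), and Pax2 lay below that mean in 8 of 8 libraries. Over the 8 libraries, however, Pax2 stood above the separate means of Pax5, Pax6 and Pax7. Its place below the joint mean thus rests on the 3 CpGs of Pax3. In all other protein-coding genes of known strand the mean beyond 20 kb was 41.8%, and 41.5% of 40535 CpGs lay under 5%. Beyond 20 kb Pax2 thus had both a lower mean and a smaller share of CpGs under 5% (25%) than these genes, while between 5 and 20 kb its share was the larger one. Pax8 had no CpG measured at this distance, so its deeper body was not analysed here.

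All 21 CpGs of the family with a mean level of at least 50% lay more than 25 kb from the gene start, the nearest at 25.4 kb in Pax7. Pax5 held 13 of them, between 64.4 and 177 kb from its start, at 57.2 to 93.5%. Pax2 held 4, from 45.8 to 89.1 kb, at 56.0 to 86.1%. Pax3 held 3, all near 65 kb, at 83.3 to 94.8%. Pax1, Pax6, Pax8 and Pax9 held none, and of these only Pax8 is longer than 30 kb.

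By tile, 57 of the 71 Pax tiles (80.3%) had a mean level under 5%, against 64.1% of the 30887 tiles in all gene regions. The difference from other genes was larger inside the genes: of tiles more than 1 kb from every gene end, 36 of 46 Pax tiles (78.3%) lay under 5%, against 35.9% of 11808 such tiles in all genes. Of these inner tiles, 7 of 10 belonged to this low class in Pax2 and Pax8 and 29 of 36 in the other members. Only 3 Pax tiles reached 50%. They were 1 in Pax3 (chr1:78132001-78133000) at 89.5% and 2 in Pax5, at 75.1% (chr4:44555001-44556000) and 79.9% (chr4:44598001-44599000), each resting on 3 CpGs.

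**Figure D3:**
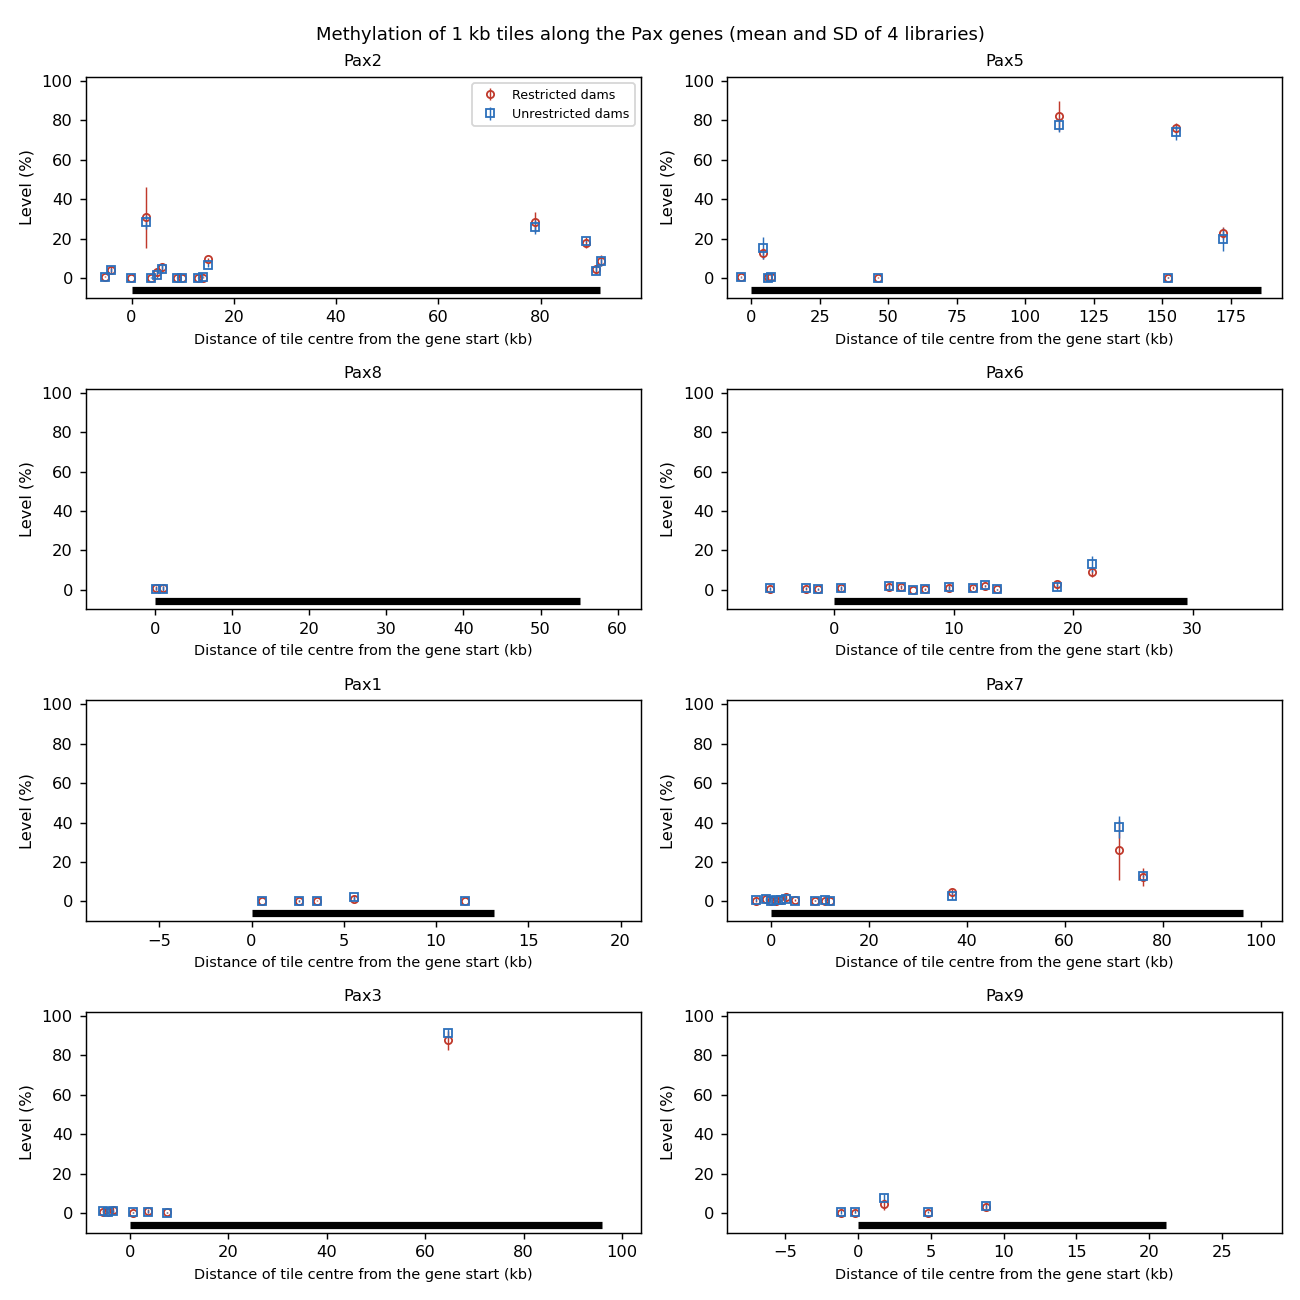
Methylation level of each 1 kb tile (%, y axis) against the distance of its centre from the gene start (kb, x axis) in the 8 members; circles are restricted and squares unrestricted means with SDs of 4 libraries, and the black bar is the gene. Most tiles near the starts lie on the floor, and the high tiles are far inside Pax3, Pax5, Pax7 and Pax2. Close to the start, 1 tile of Pax2 near 3 kb (29.5%) and 1 of Pax5 near 4 kb stand out, and 1 of Pax9 near 1.8 kb is at 6.05%.

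Pax2 had 1 tile of intermediate level near its start. A tile of 3 CpGs about 3 kb inside the gene (chr19:44749001-44750000) read 15.9%, 25.8%, 52.6% and 29.0% in restricted libraries and 23.1%, 30.8%, 29.2% and 29.9% in unrestricted libraries, on 57 to 120 reads. It lay between a tile at 0.0203% and a tile at 0.137%, and the steps of 29.5 and 29.4 points on its sides were the steepest between neighbouring tiles of Pax2. The 3 CpGs had means of 8.85 to 43.9%, while the other 42 measured CpGs in the first 5 kb of Pax2 all lay under 5% and averaged 0.344%. Restricted libraries 3 and 1 gave the highest and the lowest value of this tile, and the diet groups overlapped (adjusted p = 0.991). In DNA of pooled cells, methylation of a part of the cells and of a part of each cell's alleles cannot be told apart.

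Further into Pax2, the tile at 79 kb (chr19:44825001-44826000, 6 CpGs) averaged 28.3 ± 5.12% with restriction and 25.9 ± 3.75% without. The tile at 89 kb (chr19:44835001-44836000, 18 CpGs) averaged 17.8 ± 2.78% and 18.9 ± 0.871% in the same order. It also overlaps the noncoding RNA gene 1700039E22Rik. At the far end, 8 CpGs in the 1.5 kb window around the 3′ boundary of Pax2 averaged 7.23 ± 1.55% in restricted and 6.77 ± 1.49% in unrestricted libraries, above the start window of the same gene in every library. The upstream side stayed low: 28 CpGs within the 5 kb before Pax2, some of them in the gene model Gm35610, averaged 1.48 ± 0.597% with restriction and 1.61 ± 0.356% without. The upstream flanks of the 5 silent members with at least 3 CpGs there averaged 0.276 ± 0.21% and 0.592 ± 0.311% in the same order. Those of Pax7 and Pax9 held only 3 CpGs each. Pax1 was left out of this mean, since it had 1 upstream CpG, at 22.2 to 51.0% over the libraries. Pax2 lay above the mean of the 5 in 8 of 8 libraries, with means of 1.54% against 0.434%. At a minimum of 20 reads the direction turned (Pax2 minus the others -0.359 points).

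A border was defined as a pair of neighbouring tiles, at most 5 kb apart, of which one lay under 20% and the other at 50% or more. Only 1 was found, in Pax5, and none in Pax2 or Pax8. The unmethylated tile at chr4:44558001 averaged 0.107% and the tile 3000 bp away, at chr4:44555001, averaged 75.1%. It lies 152 to 155 kb inside the gene, and neither tile was called by diet (adjusted p = 0.990 and adjusted p = 0.884, the logistic model with Benjamini-Hochberg adjustment). In the methylated tile the values were 77.1%, 76.7%, 78.2% and 72.7% in restricted libraries, against 77.5%, 76.7%, 69.1% and 73.2% in unrestricted libraries. The methylated tile of Pax3 and the other one of Pax5 had no measured neighbour within 5 kb. At 5 reads per CpG 3 borders were found, all in Pax5, and at 20 reads or with 500 bp tiles none.

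The diet comparison was tested in a logistic model of the reads, methylated against unmethylated, that was fitted to every unit of the genome. No Pax tile was called at an adjusted p under 0.05: 0 of 68 tested tiles, against a background of 0.0177% of 33897 tiles (6 calls). At an unadjusted p under 0.05 there were 2 Pax tiles (2.94%, against 6.32% of all tiles), 1 in Pax7 and 1 in Pax9. The median difference of the Pax tiles was 0.0248 percentage points and that of all tiles -0.0116 points, with 35 Pax tiles higher and 33 lower in restricted libraries. The median size of a difference, sign aside, was 0.35 points in Pax tiles and 0.382 points in all tiles. None of the 387 tested Pax CpGs was called either (background 0.0997% of 191637 CpGs), and 16 had an unadjusted p under 0.05 (4.13%, against 5.62% of all CpGs). Among the 5 gene-start windows of the members 0 were called (background 0.0849% of 10595), 0 had an unadjusted p under 0.05 (background 6.96%), and 0 had diet groups that did not overlap (background 1.52%). Among their 8 whole regions 0 were called (background 0% of 18896), and 2, Pax3 and Pax7, had an unadjusted p under 0.05 (background 11.7%).

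**Figure D4:**
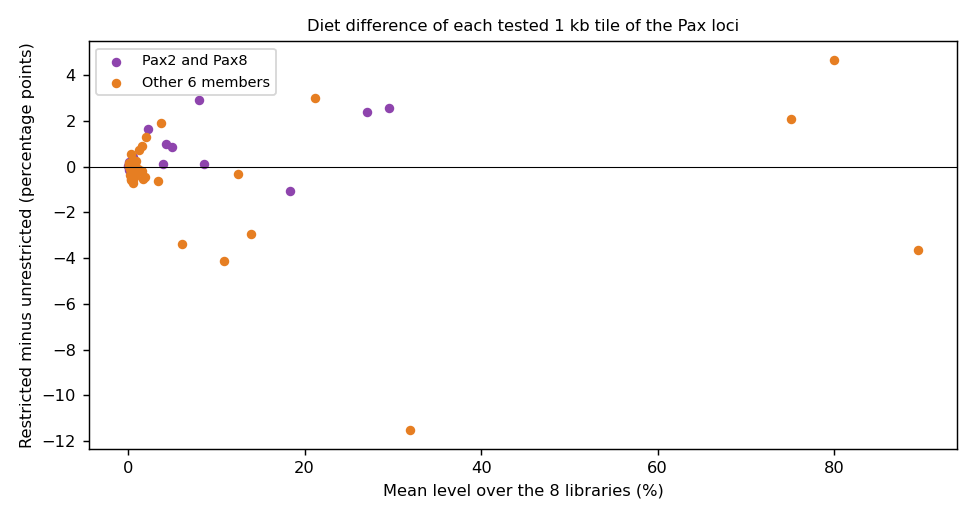
Difference between restricted and unrestricted libraries (percentage points, y axis; above 0 is higher with restriction) against the mean level over the 8 libraries (%, x axis) for the 68 tested tiles of the Pax loci. Most tiles lie near 0 on both axes, and the lowest point, at -11.5 points, is a Pax7 tile of 4 CpGs.

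Pax2 had 2 tiles whose diet groups did not overlap, in opposite directions and next to each other about 14 and 15 kb inside the gene. The tile at chr19:44760001-44761000 (15 CpGs) had 0.392%, 0.331%, 0.207% and 0% in restricted libraries, against 0.599%, 0.519%, 0.448% and 1.08% in unrestricted libraries. It had the smallest p of any Pax2 tile (difference -0.431 points, adjusted p = 0.773). The tile at chr19:44761001-44762000 (4 CpGs) had 8.54%, 9.62%, 10.0% and 10.0% in restricted libraries, against 6.06%, 5.36%, 8.06% and 6.94% in unrestricted libraries, a difference of 2.93 points (adjusted p = 0.773). Restricted libraries were thus all lower in the one and all higher in the other. With the Pax7 tile below, 3 of the 68 Pax tiles did not overlap between diets (4.41%), against 2.26% of all tiles.

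Among the silent members the smallest p of a tile belonged to Pax9 (chr12:56696001-56697000, 6 CpGs), with 0% in all 4 restricted libraries and 0%, 0.373%, 0% and 1.08% in unrestricted libraries (adjusted p = 0.773). In Pax7, the tile at chr4:139828001-139829000 (9 CpGs) had 0.264%, 0.781%, 0.34% and 1.03% in restricted and 0%, 0.213%, 0% and 0% in unrestricted libraries (adjusted p = 0.773). The tiles of smallest p of Pax6 (-4.11 points, 3 CpGs), Pax5 (0.174 points), Pax1 (-0.533 points) and Pax3 (0.116 points) had adjusted p = 0.773, and that of Pax8 (0.409 points, 6 CpGs more than 500 bp inside the gene) had adjusted p = 0.917. Leaving out 1 library at a time moved these small differences widely: from -1.18 points (without unrestricted library 3) to -0.082 points (without unrestricted library 2) in Pax1, and from 0.0265 points (without restricted library 3) to 0.236 points (without restricted library 4) in Pax3. In Pax8 they ran from 0.0568 points (without restricted library 3) to 0.796 points (without unrestricted library 2).

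The largest difference of any Pax tile came from Pax7, 71 kb inside the gene (chr4:139762001-139763000, 4 CpGs). It read 14.3%, 12.5%, 33.6% and 44.1% in restricted libraries and 41.8%, 30.2%, 36.3% and 42.3% in unrestricted libraries. The low values were those of restricted libraries 1 and 2, and the other restricted libraries lay inside the unrestricted range (difference -11.5 points, adjusted p = 0.773). These are the libraries whose reads over the genome gave lower levels than their CpGs, and the part of this in the Pax7 values was not tested. Within that tile, the CpG at chr4:139762041 differed by -21.3 points, the most of any Pax CpG (adjusted p = 0.622).

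Among single CpGs the smallest p belonged to Pax2, at chr19:44752592, about 6 kb inside the gene, with 5%, 0%, 9.68% and 20.0% in restricted libraries, against 0%, 1.56%, 0% and 1.64% in unrestricted libraries (difference 7.87 points, adjusted p = 0.592). It was called in 1 alternative, without restricted libraries 1 and 2 (difference 14 points, adjusted p = 0.0499). At 2 of the tested Pax CpGs the diet groups did not overlap, which is 0.517% against 1.8% of all CpGs, and both were higher with restriction. One is in the Pax2 tile at 15 kb (chr19:44761218, 24.4%, 23.1%, 33.3% and 33.3% in restricted and 21.2%, 16.1%, 22.6% and 19.4% in unrestricted libraries). The other is 137 kb inside Pax5 (chr4:44573776, 62.9%, 58.8%, 61.9% and 64.0% in restricted and 56.2%, 53.1%, 53.6% and 47.2% in unrestricted libraries). Both had adjusted p = 0.622.

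Among whole regions, Pax3 had the smallest p. Over all reads of its 60 CpGs, 3.37%, 2.44%, 3.15% and 2.91% were methylated in restricted libraries and 4.50%, 5.03%, 5.98% and 4.01% in unrestricted libraries. At a minimum of 20 reads the difference was -0.0292 points (adjusted p = 0.952). With 10 reads the groups did not overlap (difference -1.92 points, adjusted p = 0.169), and Pax3 was the 1 member region of 8 of which this was true, against 4.79% of all gene regions. The only Pax3 CpGs at 50% or more are the 3 near 65 kb, and the share of the region's reads that fell on them was 3.01 ± 0.283% with restriction and 4.92 ± 0.636% without. When each CpG had the same weight, the Pax3 region read 4.70 ± 0.329% with restriction and 4.95 ± 0.231% without, and the groups overlapped. Without restricted libraries 1 and 2 the pooled difference was -1.85 points (adjusted p = 0.796). Of the other regions, Pax7 (-0.877 points, adjusted p = 0.375) and Pax9 (-0.79 points, adjusted p = 0.516) had the largest differences. That of Pax7 was -0.567 points without restricted library 2 and -0.18 points (adjusted p = 0.905) without restricted libraries 1 and 2. The kidney genes Pax2 (-0.082 points, adjusted p = 0.777) and Pax8 (-0.394 points, adjusted p = 0.785) did not stand apart from the silent Pax1 (0.073 points) and Pax6 (-0.214 points). At a minimum of 5 reads Pax8 had the largest difference of the 8 regions (-2.78 points, adjusted p = 0.307), and Pax2 read -0.868 points (adjusted p = 0.254). In Pax2 and Pax5 the sign changed to 0.172 and 0.347 points when each CpG had the same weight, so no direction is given for them.

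By the measure of likeness used here, the genes nearest to Pax2 were Septin5, Gpr153 and Tead3. The measure is the Euclidean distance over 5 values: the mean levels of start window, body and flanks, and the shares of CpGs under 20% and of at least 80%. Pax2 had 0.0873%, 5.88% and 1.54% for the levels and 92.1% and 0.463% for the shares. Septin5, a cytoskeletal GTPase gene, came closest of 709 genes with enough CpGs, at 0.131%, 6.48% and 0.0197% for the levels, a distance of 2.05. Gpr153 (distance 3.36) encodes a receptor of the G protein-coupled kind, and Tead3 (distance 3.61) a transcription factor of the Hippo pathway. Entry needed at least 10 measured CpGs in the start window. Pax1 (6), Pax7 (7) and Pax9 (9) had fewer, and Pax5, Pax6 and Pax8 had none, so they could not enter. Of the other members only Pax3 (11) reached that number, and it was not among these 3.

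Genes that work with Pax2 and Pax8 showed no diet call either. The list held 32 genes, among them the cofactors Eya1 and Dach1, and Wt1, Sall1, Gdnf and Ret, of which 30 are autosomal. Eya1, with 2 measured CpGs in its region, had neither its window nor its region tested. Dach1, Gdnf and Ret had no window tested. Calls were 0 in each direction for the list's 19 gene-start windows, its 29 regions and its 135 tested tiles. Over the genome 0.00944% of windows were called higher and 0.0755% lower with restriction, and 0.00295% of tiles were called higher and 0.0148% lower. The median difference was -0.0256 points over its windows and -0.163 points over its regions, beside -0.00569 and -0.103 points over all genes. The windows averaged 0.333 ± 0.0795% in restricted and 0.386 ± 0.0269% in unrestricted libraries, and 18 of 19 lay under 5%. The smallest window p belonged to Eya3, a phosphatase cofactor (-0.24 points, adjusted p = 0.671). Among regions the smallest p belonged to Sfrp2, a secreted Wnt modulator (-4.03 points, adjusted p = 0.154), followed by Eya3 (-5.99 points, adjusted p = 0.292).

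The sorted identity could be looked at only through methylation. The measured start windows of markers were low for every cell type listed. The 2 measured nephron progenitor genes (Six2 and Sall1) had 0.0692 ± 0.0361% in restricted and 0.0421 ± 0.0392% in unrestricted libraries. Any measured gene of stroma, endothelium, blood, ureteric bud or podocytes had at most 4.02%. Endothelium rested on Flt1 alone and blood on Cd34 alone. Markers with a measured region but no measured window ran from 0.458% (Osr1) to 77.9% (Tek) over that region. Among these, Pecam1 was at 56.0% and Ptprc at 51.8%. All measured windows were low, so no cell type could be read from them. No window, region or tile of these lists was called by diet. Read counts summed over all cytosines ran from 16045992 to 37305007 per library, where a read covering several cytosines counts at each. The median was 20 to 44 reads per shared CpG, so that a single CpG carries more counting error than a tile or region.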

How the data were processed

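Methylation was measured in 8 RRBS libraries, 4 per diet, grouped by the sample titles. Per the submitters' processing notes, the tools were FastQC, cutadapt, Trim Galore 0.3.3, methylKit and Bismark 0.13.1, on mm10, with neither order nor settings. The deposited files give, for each cytosine and strand, the count of reads and the percent of them called methylated. Count times percent was rounded to whole methylated reads (within 0.0488 of a whole number up to 1000 reads), and the strands were added. At mitochondrial CpGs 0.0221 to 0.0854% of reads were called methylated.

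Autosomal CpGs were kept at a minimum of 10 reads in each library. Positions of genes were those of RefSeq (GRCm38.p6), with the strand from its promoter table (25748 of 33073 genes). Tiles, windows and regions needed 3 CpGs. Tile levels and all tests pool the reads of a unit, and other levels average CpGs. The logistic regression had 1 term for diet, and it was tested by a likelihood-ratio F test. The Pearson dispersion was moderated as in limma's squeezeVar (rewritten in Python) and kept at 1 or more. Benjamini-Hochberg adjustment ran over all tested units (33897 tiles, 191637 CpGs, 10595 windows, 18896 regions), which excludes those with reads of 1 kind only. Scripts were tested on simulated data. Alternatives used limma 3.58.1 and edgeR 4.0.16 (R 4.3.3), other coverage minimums, tile sizes and flanks, and fewer libraries. Python 3.11.15 ran numpy 2.4.6, scipy 1.17.1 and pandas 2.3.3. RRBS does not let PCR copies be removed, so limits from counts cover counting error only.

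Members and lists were chosen with earlier results of these data known. Named are all members with their start windows, compartments and the tile of smallest p, every border, the genes nearest to Pax2, and the 2 list genes of smallest p for windows and for regions, of which 1 window is not reported here. Tiles and CpGs of largest difference, without overlap or of high level were added after their values were seen. Replicate numbers were not used to pair the libraries, except in the alternative that fitted them as a block. Sex chromosomes, exons, introns and CpG islands were not analysed here.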

Additional observations from a re-analysis of the deposited data

Results flagged for a closer look

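In 7 of 42 sets of 4 libraries, 1 library stood apart from the other 3 by Dixon's criterion at the 95% level. Chance gives about 1 in 20 for normally distributed values, and all 7 were levels under 2%. In 6 of them the other 3 libraries were at 0, and in such a set any value above 0 is flagged. Sets of 4 equal values cannot be flagged but are among the 42, so 7 of 42 cannot be set against that rate. In the Pax7 window the nearest other library was at 0.366%. At gene starts these were the Pax1 window of restricted library 3 (0.321%) and of unrestricted library 2 (0.282%), the Pax2 window of unrestricted library 1 (0.185%), the Pax7 window of restricted library 1 (0.64%) and the Pax9 window of restricted library 1 (1.08%). The tiles of smallest p added unrestricted library 2 for Pax7 (0.213%) and for Pax8 (1.55%). No cause was tested.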

How the results depend on the processing

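Under 16 to 20 settings per kind of unit, no Pax tile, window or region was called, while calls over the genome ran from 0 to 110 tiles, 0 to 34 windows and 0 to 59 regions. Pax CpGs called were 0 except without restricted libraries 1 and 2, where 1 was called (Pax2, adjusted p = 0.0499) and calls over all CpGs were 673. Of 353 alternatives for single windows, regions and tiles, 331 kept their sign, 22 turned it and 0 reached an adjusted p under 0.05. The cause was not tested except where a setting names it. Fitting the replicate number as a block left 0 Pax calls for every unit and 0 calls over the genome for tiles, CpGs, windows and regions. Deviations of same-numbered libraries correlated at -0.0995 to 0.0299, and those of other pairs across the diets at -0.0517 to 0.0718. These values cannot tell if equal numbers mark libraries handled together, and no label says so.

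With a minimum of 5 reads the Pax1 window read -0.0824, the Pax7 window 0.0121 and the Pax1 region -0.00597 points. With 20 reads the Pax5 region read 0.211 and the Pax2 region 0.0163 points. Without restricted libraries 1 and 2 the Pax2 window read -0.0289, the Pax5 region 0.211 and the Pax2 region 0.298 points. The Pax7 window was 0.041 on limma's log2 scale and 0.175 points with 500 bp on each side. With equal weight per CpG, which was added after the data were seen, the Pax2 region read 0.172 and the Pax5 region 0.347 points. Leaving out each library in turn gave -0.0706 to 0.0801 points in the Pax1 window, -0.348 to 0.163 in the Pax7 window, -0.0159 to 0.195 in the Pax1 region, -0.276 to 0.187 in the Pax2 region and -0.745 to 0.145 in the Pax8 region.

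The gap between Pax2 with Pax8 and the other members moved in the body, at -1.29 points, to -0.352 at 5 reads and 4.77 at 20 reads, in the upstream flank, at 1.11 points, to -0.359 at 20 reads, and over the whole region, at -0.668 points, to 1.10 at 5 reads and 3.05 at 20 reads. A minimum of 20 reads leaves no Pax8 CpG. At 10 reads the body of Pax2 alone (5.88%) lay above the mean of the others (4.70%), and that of Pax8 (0.951%) below it. Borders were 3 at 5 reads, 0 at 20 reads and 0 with 500 bp tiles. The level of a region moved with the minimum as well: Pax5 had 17.6% at 5 reads, 9.76% at 10 and 0.556% at 20, and Pax8 had 5.74% over 19 CpGs at 5 reads. Absolute levels therefore hold only for the CpGs counted.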
